A study of Mus musculus with 8 samples.

Results

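The mitosis and spindle genes are a hand-chosen list of 40 protein-coding genes that drive entry into mitosis, build the spindle and kinetochores, compact chromosomes and divide the cell. They were picked by name and function and not by a rule on measured values, although earlier results of these data were known. They make up 40 of the 21536 protein-coding genes that could be placed with a strand on GRCm38. CUT&Tag with antibodies to RNA polymerase II (Rpb1) carrying phosphate on serine 5 (Ser5P) or serine 2 (Ser2P) of its C-terminal repeat had been run in MEL cells, a mouse erythroleukaemia line. In this assay an antibody brings a transposase to chromatin, and the tagged fragments pile up as peaks. The control line has the genotype dCAS control and the other line the genotype Myrlin KD. Myrlin is an enhancer RNA made 81 kb upstream of Myb. For each antibody there were 2 libraries per line, each from the same number of cells, so 8 libraries in 4 groups, all MEL and all untreated as far as the labels say. Whether either line was a clone or a pool, and in which phase of the cell cycle the cells were collected, is not stated. The libraries are called biological replicates without a description of separate cultures, and a p-value here reflects only library-to-library spread, possibly of technical origin.

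Polymerase that starts transcription at a promoter carries Ser5P, and polymerase travelling through the gene and past its 3′ end gains Ser2P. Mitotic genes are transcribed mainly in G2 and M phase: in G1 and in resting cells the DREAM complex holds many of them off, and in G2 the B-Myb and FoxM1 complexes switch them on. DREAM and these activators reach the DNA through a short element close to the start site, the cell-cycle homology region (CHR), and neighbouring CCAAT boxes bind the factor NF-Y.

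Promoters of 33 members were found in the RefSeq promoter table (GRCm38.p6), which gives 250 bases before to 50 bases after each start. The 7 without an entry were Ccna2, Cdc25c, Tpx2, Aurkb, Incenp, Kif20a and Smc4. A CHR, searched as TTTGAA or TTCGAA on both strands, was in 25 of the 33 (75.8%), against 18.2% of all 17492 promoters and 13.6% of the 6706 promoters whose genes had promoter Ser5P in all 4 Ser5P libraries. From 50 bases before the start onward the share was 69.7% of members against 4.42% of all promoters. CCAAT on either strand was in 24 members (72.7%) against 39.2% of all promoters, and 22 members held both elements. A Myb site, searched as TAACNG or CAACNG, was in 57.6% of members and 47.5% of all promoters, and an E2F site, searched as TTCCCGC or TTGGCGC, in 15.2% and 8.84%. In the part from 50 bases before the start onward the Myb site was in 33.3% of members and 20.2% of all promoters. The shares there were 9.09% and 3.38% for the E2F site, and 54.5% and 14.1% for CCAAT. The string TTGGCGC can overlap the reverse of CCAAT, and some other strings can share end bases. These are matches of letters and not measured binding.

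Of the promoters below, Cdk1 and Ccnb2 are known CHR-driven genes, and Hmmr, Bub1 and Ncaph are members with peaks in both KD libraries and neither control in at least 1 window. They lie at chr10:69352863-69353162, minus strand (Cdk1), chr9:70421505-70421804, minus strand (Ccnb2), chr11:40733388-40733687, minus strand (Hmmr), chr2:127831810-127832109, minus strand (Bub1) and chr2:127133905-127134204, minus strand (Ncaph). Capitals mark CHR and CCAAT matches on either strand (a reverse CHR reads TTCAAA and a reverse CCAAT reads ATTGG).
Cdk1: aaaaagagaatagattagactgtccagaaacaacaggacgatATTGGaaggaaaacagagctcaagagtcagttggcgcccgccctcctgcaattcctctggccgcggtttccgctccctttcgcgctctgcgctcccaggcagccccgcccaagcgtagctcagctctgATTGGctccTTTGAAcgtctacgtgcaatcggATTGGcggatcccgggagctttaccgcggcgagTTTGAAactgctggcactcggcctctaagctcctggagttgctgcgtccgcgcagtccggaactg
Ccnb2: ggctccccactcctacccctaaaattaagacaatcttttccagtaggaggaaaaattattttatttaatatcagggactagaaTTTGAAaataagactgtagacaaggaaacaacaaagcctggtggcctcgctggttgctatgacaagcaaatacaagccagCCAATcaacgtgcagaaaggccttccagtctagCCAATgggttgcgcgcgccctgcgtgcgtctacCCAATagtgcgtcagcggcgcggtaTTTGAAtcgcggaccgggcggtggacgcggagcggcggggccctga
Hmmr: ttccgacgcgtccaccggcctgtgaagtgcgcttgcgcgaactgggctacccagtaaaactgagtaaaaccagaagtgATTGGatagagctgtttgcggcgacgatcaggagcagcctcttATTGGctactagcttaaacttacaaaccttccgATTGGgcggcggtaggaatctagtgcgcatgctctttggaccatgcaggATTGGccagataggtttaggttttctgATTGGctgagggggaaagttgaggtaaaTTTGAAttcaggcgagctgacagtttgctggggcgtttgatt
Bub1: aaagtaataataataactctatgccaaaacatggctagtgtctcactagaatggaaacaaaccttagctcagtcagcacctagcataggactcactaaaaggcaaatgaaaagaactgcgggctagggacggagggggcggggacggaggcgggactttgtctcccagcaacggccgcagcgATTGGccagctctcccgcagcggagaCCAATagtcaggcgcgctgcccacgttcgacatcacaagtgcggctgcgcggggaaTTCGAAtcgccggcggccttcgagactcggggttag
Ncaph: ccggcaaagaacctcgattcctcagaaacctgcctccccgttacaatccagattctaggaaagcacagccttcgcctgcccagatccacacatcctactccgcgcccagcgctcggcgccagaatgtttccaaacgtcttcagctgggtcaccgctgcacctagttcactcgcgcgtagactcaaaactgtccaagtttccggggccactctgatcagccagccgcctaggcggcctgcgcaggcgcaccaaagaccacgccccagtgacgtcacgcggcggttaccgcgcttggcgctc
Cdk1 holds 2 CHR and 3 CCAAT matches, Ccnb2 2 and 3, Hmmr 1 and 5, and Bub1 1 and 2. Ncaph holds neither, nor does Birc5, another member with KD-only peaks. Ccnb1 has 2 CCAAT matches and no match to TTTGAA or TTCGAA in this window. Other spellings of the CHR were not searched, so a CHR there is not excluded.

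Peak lists held 21574 to 25441 peaks for Ser5P and 20793 to 32125 for Ser2P. Relative depth, read from the background pileup of each list, was 0.568 and 0.641 in the Ser5P controls and 0.647 and 0.839 after KD. For Ser2P it was 0.783 and 0.438 in controls against 1.12 and 1.03 after KD. For both antibodies each KD library was thus deeper than each control, by little for the nearest Ser5P pair. The median peak width of every KD list exceeded that of either control of the same antibody. As a check of the cell label, 8 of 15 erythroid marker genes had promoter Ser5P in all 4 Ser5P libraries, against 0 of 9 lymphoid, 0 of 8 myeloid and 0 of 9 non-haematopoietic markers. Gata1, Hba-a2, Hbb-bt, Alas2 and Slc4a1 had no Ser5P peak at their outer 5′ end in any of them. Ser2P from 1000 bp inside the gene to 3000 bp past its 3′ end separated the lists less sharply. It was in all 4 Ser2P libraries at 10 of 15 erythroid markers. The same held for 2 of 9 lymphoid (Cd3d, Cd79a), 1 of 8 myeloid (Csf1r) and 2 of 9 non-haematopoietic markers (Col1a1, Pecam1).

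Nearly every mitotic gene carried polymerase peaks at its start in both lines. A promoter window spanned 1000 bp on each side of the outer 5′ end, and covered bp is the number of its bases under peaks. For Ser5P, 39 of 40 members had a promoter peak in all 4 libraries, against 37.7% of all genes, the exception being Bub1b. For Ser2P, 38 of 40 did, against 36.3% of all genes, the exceptions being Bub1 and Pttg1. In all 8 libraries 37 members (92.5%) were marked, against 34.5% of genes. Summits sat close to the start: in 36 of 40 members the median summit over the marked libraries lay within 250 bp of the 5′ end. Ranked by p within its own list, the median member promoter peak stood in the top 12.2% to 21.9% of peaks, while the median over all genes with a promoter peak stood at 17.6% to 25.9%.

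Through the gene body and past its end the marks were sparse. The downstream window began 1000 bp into the gene and closed 3000 bp beyond its 3′ end. Ser2P was found there in all 4 libraries at 11 of 40 members (26.4% of all genes) and in none at 8, and Ser5P in all 4 at 9 (25.5% of all genes) and in none at 8. Not all of these calls were gene-body signal. Ccna2 was counted through its promoter peak, and so was Pttg1 for Ser5P at its inner start. Ccnb1, Kif23 and Ncapd2 had Ser2P in all 4 only through sites near the starts of Cenph, Rplp1 and Gapdh. Over all genes, 5679 had downstream Ser2P in all 4 libraries, and 4833 without bases near other genes' 5′ ends. Among the 39 members with promoter Ser5P in all 4 libraries, 25.6% had downstream Ser2P in all 4, against 39.7% of the 8111 genes of all kinds with such a promoter. Aurkb, Mad2l1, Cdc20 and Cenpa had no downstream peak in any of the 8 libraries. The 8 members without downstream Ser2P had a median length of 8307.5 bp against 25644.5 bp over all members. Of the 9 members under 10000 bp with promoter Ser5P in all 4 libraries 5 lacked downstream Ser2P, and of the 7 over 40000 bp 0 did. Over all genes with such a promoter the share without it also ran from 47.9% in the shortest class to 7.20% in the longest, and a longer window holds more bases in which a peak can fall. The 8111 genes had a median length of 20351 bp, below that of the members. With classes split at 10000, 20000 and 40000 bp, downstream Ser2P was in all 4 libraries at 22.2%, 12.5%, 26.7% and 42.9% of members. The shares of the 8111 genes were 25.9%, 33.2%, 38.2% and 60.0%. These classes held 9, 8, 15 and 7 members, and the difference was not tested.

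**Figure D1:**
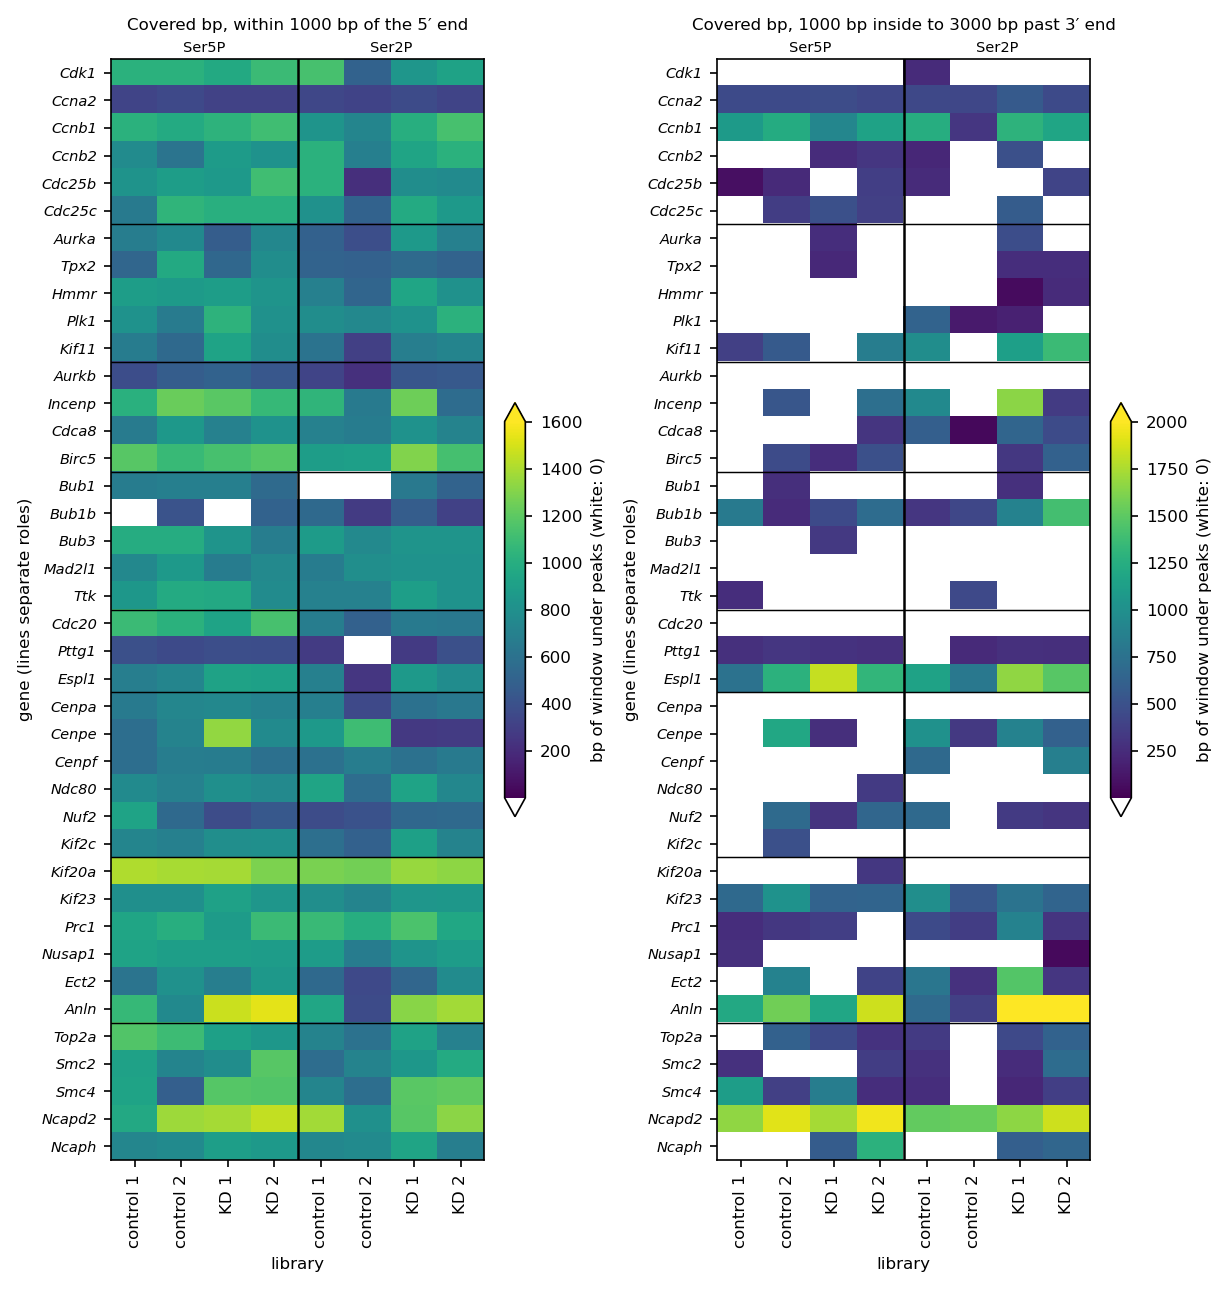
Covered bp of the promoter window (left) and the downstream window (right) for the 40 genes (rows, ordered by role) in the 8 libraries (columns), with white for 0. Promoter windows are filled in nearly every library, Bub1 is white in both Ser2P controls, and most downstream cells are white or dark apart from genes such as Anln and Ncapd2.

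**Figure D2:**
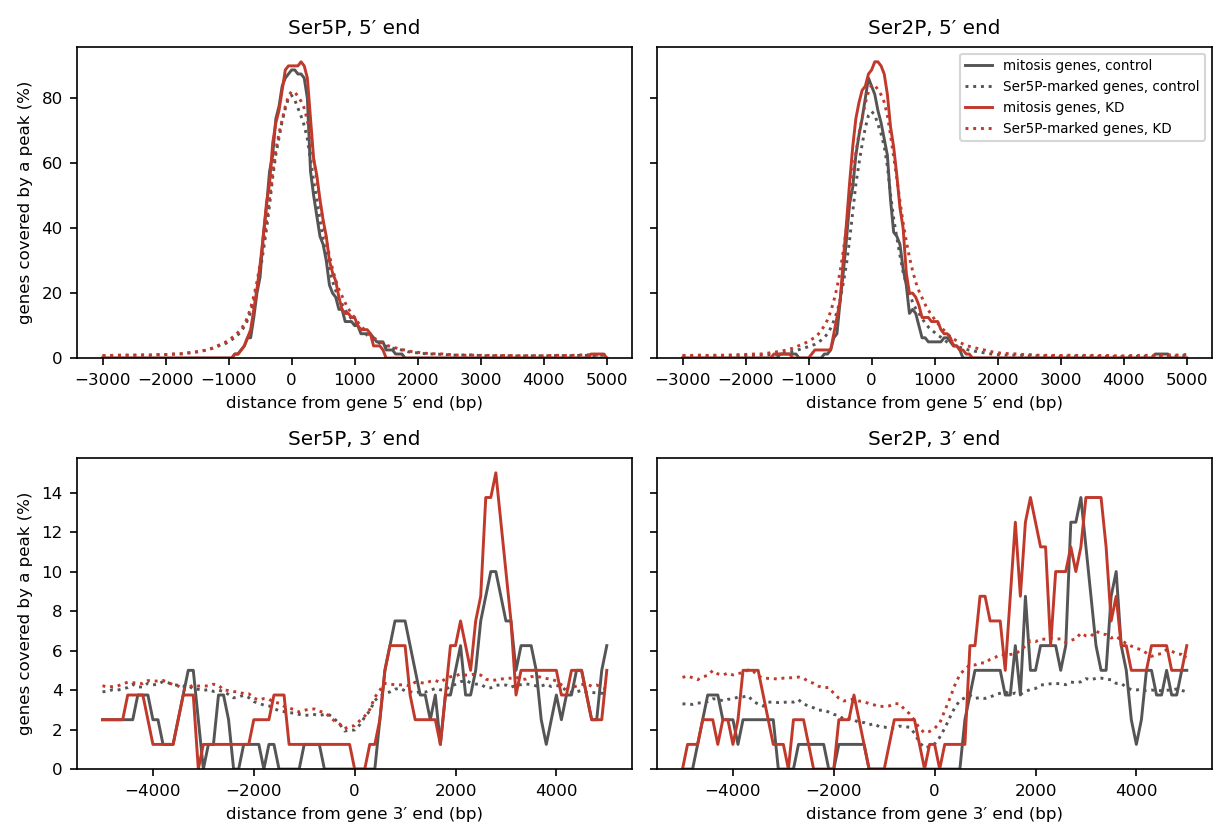
Share of genes under a peak by distance from the 5′ end (top) and 3′ end (bottom), as the mean of 2 libraries, for the 40 mitosis genes (solid) and the 8111 genes with promoter Ser5P in all 4 libraries (dotted), control in grey and KD in red. At the 5′ end itself Ser5P covered 88.8% of mitosis genes in controls and 90% in KD, and past the 3′ end the lines stay below 16%.

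The profile by distance was concentrated round the 5′ end, as it was for the Ser5P-marked genes. In Ser5P controls 88.8% of members were covered at the 5′ end against 80.9% of Ser5P-marked genes, 35% at 500 bp inside it against 36.5%, and 10% at 1000 bp against 10.9%. At 1000 bp upstream no member was covered, against 4.94% of the Ser5P-marked genes. At 2000 bp past the 3′ end Ser2P covered 5% of members in controls and 12.5% in KD, and 4.08% and 6.45% of the Ser5P-marked genes. With 40 genes, a step of 1 gene in 1 library moves these mean shares by 1.25 points.

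The comparison of the Myrlin KD line with the dCAS control line asked whether these marks change when the Myb enhancer RNA is reduced. None of the 40 members had a mark in both controls and neither KD library in any of the 4 measures, and none passed the test. At a −log10 q of at least 5 there was 1 such member for promoter Ser5P, Cenpe, and 1 for downstream Ser5P, Kif11. At promoters, 0 of 40 members had Ser5P in both controls and neither KD library (control-only, 0.446% of all genes), and 0 had the reverse (KD-only, 0.409%). For promoter Ser2P, 0 were control-only (0.2% of all genes) and 1, Bub1, was KD-only (1.1%). For downstream Ser2P, 0 were control-only (0.548%) and 4, Tpx2, Hmmr, Birc5 and Ncaph, were KD-only (2.25% of all genes, and 4.55% of genes with a downstream Ser2P peak in at least 1 library). For downstream Ser5P, 0 were control-only (1.44%) and 2, Ccnb2 and Ncaph, were KD-only (1.08%). Bulk libraries cannot tell fewer cells in G2 and M from less polymerase on the gene in each cell.

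Covered bp was compared by limma on the covered percentage of the window over every gene marked in 2 or more of the 4 libraries. It called 0 genes in all 4 comparisons at an adjusted p of 0.05 (0% of genes in each direction). At an unadjusted p under 0.05 it gave 220 genes (2.38%) higher in control and 669 (7.25%) higher in KD for promoter Ser5P, with 2 and 2 members among them. Promoter Ser2P gave 43 (0.458%) and 1443 (15.4%), with 1 and 6 members. Downstream Ser5P gave 356 (4.37%) and 427 (5.25%), with 0 and 2 members, and downstream Ser2P 65 (0.73%) and 982 (11%), with 0 and 4. With 2 libraries against 2 the exact permutation test of a single gene cannot give a two-sided p under 0.333.

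Promoter Ser5P covered more bp in both KD libraries than in both controls at 11 of 40 members and less at 5, against 25.6% and 10.8% of genes with a promoter peak. Promoter Ser2P was above both controls at 20 and below at 1, against 46.1% and 2.21%. The median KD minus control difference over members was 27 bp for promoter Ser5P and 152.25 bp for promoter Ser2P, against 35.5 and 147 bp over all genes marked in at least 1 library. The Ser5P median was -2.25 bp without the first control library. Downstream Ser2P was above at 12 members and below at 0, against 33.9% and 3.48% of genes with a downstream peak. Its median difference over the 32 members marked there was 209.5 bp against 180.5 bp for all marked genes. Over all 40 members it was 146.25 bp, and 12 bp after every library was thinned to the shallowest. Downstream Ser5P was above at 4 and below at 1, against 15.2% and 15.6%. For both marks the KD libraries were the deeper ones and their median peak was wider. Over all marked genes the downstream Ser2P median was 76.5 bp after thinning and 120 bp with lists of equal size. For promoter Ser2P these medians were 127 and 144 bp. For promoter Ser5P they were 32.5 and 39 bp, and for downstream Ser5P -25 and 27 bp. Beyond these alternative lists, the part of depth and width in these counts was not tested.

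**Figure D3:**
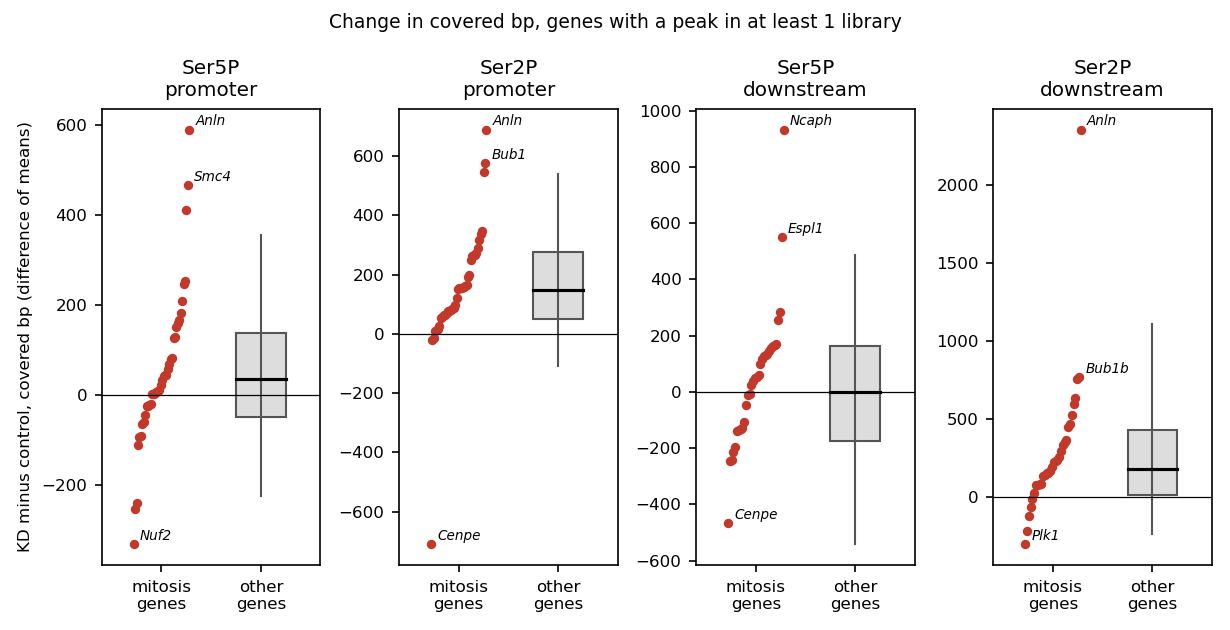
KD minus control covered bp (difference of the means of 2 libraries) for each mitosis gene with a peak in at least 1 library (red points, sorted) and for the other genes with a peak (box: quartiles and median, line: 5th to 95th percentile), in 4 panels by antibody and window, each with its own scale. Most red points lie in the span of the other genes, with Cenpe lowest for promoter Ser2P and Anln highest in 3 panels.

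Genes of the Cdk1 switch, the kinase and its activators that push cells from G2 into mitosis, were marked at all 6 promoters with both antibodies in every library. Cdk1 itself, the mitotic kinase, had 1020 and 1025 bp of promoter Ser5P in controls and 971 and 1092 bp in KD. Its promoter Ser2P covered 1134 and 502 bp in controls and 842 and 924 bp in KD, so the groups overlapped for both marks. Downstream it had only 244 bp of Ser2P, in control 1. Cyclin A2 (Ccna2), which partners Cdk1 as cells enter mitosis, had a strong peak off the annotated end, with summits 769 to 908 bp inside the gene. The promoter window therefore cut it, leaving 326 and 357 bp of Ser5P in controls and 319 and 314 bp in KD. The same peak supplied most of its downstream coverage.

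The mitotic cyclins Ccnb1 and Ccnb2 had KD values above both controls for promoter Ser5P. Ccnb1 covered 1025 and 978 bp in controls and 1035 and 1107 bp in KD, and for Ser2P 828 and 730 against 1001 and 1137 bp. Past its 3′ end Ccnb1 had peaks of all 8 libraries, at a site that lies at the start of the neighbouring gene Cenph. Ccnb2 covered 774 and 617 against 876 and 818 bp for promoter Ser5P, while its Ser2P groups overlapped. Downstream Ser5P at Ccnb2 was KD-only, with 0 and 0 bp in controls and 251 and 315 bp in KD (exact permutation p = 0.333). The peaks of the 2 KD libraries were at different places, 4755 and 12053 bp from the start, and neither had a −log10 q of 5. The phosphatases Cdc25b and Cdc25c, which activate Cdk1, ranged from 654 to 1107 bp of promoter Ser5P and 214 to 1021 bp of promoter Ser2P.

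Among centrosome and spindle assembly genes, promoters were marked in every library. KD-only downstream Ser2P was found at Tpx2 and Hmmr. The kinase gene Aurka, which matures centrosomes, had 680 and 758 bp of promoter Ser5P in controls and 471 and 744 bp in KD. For Ser2P its promoter covered 500 and 386 bp in controls and 864 and 696 bp in KD, without overlap. Its promoter is shared head to head with Cstf1. Downstream, Aurka had 1 peak per antibody, both in KD 1.

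Tpx2, the spindle protein that activates Aurora A, had 0 and 0 bp of downstream Ser2P in controls and 259 and 261 bp in KD. Hmmr, a spindle-pole protein that binds Tpx2, had 0 and 0 bp against 59 and 244 bp. At both genes the KD peaks of the 2 libraries did not coincide: 39716 and 47294 bp from the Tpx2 start, and 3415 and 1434 bp past the Hmmr 3′ end. Both calls were lost at a −log10 q of at least 5, and also when lists were trimmed to equal size. The polo-like kinase Plk1, which acts at centrosomes and kinetochores, went the other way downstream, with 640 and 146 bp in controls and 182 and 0 bp in KD, and its groups overlapped.

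Kif11, the motor that pushes spindle poles apart, had promoter values above both controls in both marks, 674 and 546 against 927 and 785 bp for Ser5P and 607 and 301 against 684 and 720 bp for Ser2P. Inside the gene 3 separate sites, 15778, 22982 and 28416 bp from the start, had peaks in 2 KD libraries and no control. They are 3 of the 5 intragenic sites of this kind among members, and the others are in Cdc25b and Ncaph. The reverse kind, 2 or more controls and no KD library, was seen at 1 intragenic site, in Kif23. Kif11 also had intragenic sites with a peak in 1 control library and no KD library. They lay 4522, 32514, 34885, 42150 and 43409 bp from the start. Sites of these kinds were not counted over all genes, and the KD libraries were the deeper ones.

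In the chromosomal passenger complex, which corrects attachments and guides cytokinesis, all 4 promoters were marked throughout. Its kinase Aurkb had small peaks, 382 and 470 bp of Ser5P in controls and 503 and 437 bp in KD, and 331 and 221 against 427 and 450 bp of Ser2P. The scaffold Incenp had among the wider promoter peaks, 1016 to 1236 bp of Ser5P, and Cdca8 (borealin) had 665 to 851 bp at a promoter it shares with 9930104L06Rik. Survivin (Birc5), which targets the complex to centromeres, had 1187 and 1079 bp of promoter Ser5P in controls and 1133 and 1176 bp in KD. Promoter Ser2P at Birc5 covered 890 and 903 bp in controls and 1299 and 1130 bp in KD, and the groups did not overlap (limma difference 15.9 points ± 4.90 SE, adjusted p = 0.278).

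Past the Birc5 3′ end, at chr11:117857542-117858161, Ser2P was absent from both controls and covered 322 and 620 bp in KD 1 and KD 2 (exact permutation p = 0.333, limma adjusted p = 0.368). The site lies 2032 bp past the 3′ end, and both KD peaks fall on it. Among the 4 KD-only downstream Ser2P calls Birc5 was the 1 whose KD libraries had peaks at the same place, as did 71.1% of the 485 KD-only genes. Ser5P marked the same site with 460 bp in control 2 and with 263 and 490 bp in KD, so a control library of the other mark had it too. The Birc5 call stood at a −log10 q of at least 5 but not after thinning to the shallowest library.

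Checkpoint genes, whose products delay anaphase until all kinetochores are attached, included Bub1 and Bub1b, 2 of the 3 members not marked at the promoter in every library. Bub1, the kinase that recruits the others, had promoter Ser5P of 672 and 689 bp in controls and 692 and 551 bp in KD. Promoter Ser2P at Bub1 was 0 and 0 bp in controls and 649 and 507 bp in KD. The KD peaks overlapped each other and the Ser5P peaks, and no control Ser2P peak came near (limma difference 28.9 points ± 4.62 SE, adjusted p = 0.231; exact permutation p = 0.333). On the log2(covered bp + 100) scale Bub1 passed limma, with an adjusted p of 0.0417. The call remained after thinning. It was lost at a −log10 q of at least 5 and with lists trimmed to equal size, where only 1 KD library kept a peak. In rank by p the Bub1 KD peaks stood at 52.9% and 74.6% of their lists, so they are weak peaks.

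Bub1b (BubR1), a component of the mitotic checkpoint complex, had the lowest promoter Ser5P, with 0 and 413 bp in controls and 0 and 502 bp in KD, and thus the same pattern in both lines. Its promoter Ser2P was present throughout, 547 and 277 against 473 and 308 bp. Deep inside the gene, 40105 bp from the start at chr2:118638033-118638667, Bub1b had the only intragenic site of any member with a peak in all 8 libraries. Bub3, which carries Bub1 and BubR1 to kinetochores, had 992 and 992 bp of promoter Ser5P in controls and 829 and 677 bp in KD. The groups did not overlap (limma difference -11.9 points ± 3.98 SE, adjusted p = 0.500), and its promoter Ser2P groups did. Mad2l1, which inhibits the anaphase-promoting complex, and the kinase Ttk (Mps1) had overlapping Ser5P groups, of 673 to 867 bp and 772 to 980 bp. For both, promoter Ser2P was higher in each KD library than in each control.

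Anaphase-onset genes were marked at all 3 promoters in Ser5P. Cdc20, the activator of the anaphase-promoting complex, had 1088 and 1023 bp in controls and 929 and 1132 bp in KD, and for Ser2P 676 and 498 against 663 and 639 bp. Securin (Pttg1) had low window coverage, 393 and 359 bp of Ser5P in controls and 388 and 379 bp in KD, and for Ser2P 279 and 0 against 272 and 391 bp. The RefSeq promoter table places its start 1482 bp inside the outer end, and round that start Ser5P covered 668 and 675 bp in controls and 684 and 654 bp in KD. Separase (Espl1), the protease that cuts cohesin, had 684 and 729 against 921 and 911 bp of promoter Ser5P. It was higher in both KD libraries in all 4 measures, and downstream Ser2P covered 1150 and 800 bp in controls and 1665 and 1484 bp in KD (limma adjusted p = 0.413). All of that downstream signal in control 1, and most of it in the other libraries, lies within 1000 bp of the start of Pfdn5. Peaks there covered 479 and 671 bp in control 1, 472 bp in control 2, 622 and 547 bp in KD 1, and 400 and 628 bp in KD 2. At these sites KD 2 was thus not above control 1.

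Kinetochore genes included the member whose promoter Ser2P was lower in both KD libraries than in both controls. Cenpa, the centromeric histone, had 658 and 736 bp of promoter Ser5P in controls and 750 and 709 bp in KD. Its promoter Ser2P covered 694 and 353 bp in controls and 598 and 644 bp in KD, again overlapping. Cenpf, a large outer kinetochore protein, Ndc80 and Kif2c ranged from 577 to 800 bp of promoter Ser5P. Ndc80, the microtubule-binding subunit of the outer kinetochore, shares its promoter with Spdya. Kif2c, a microtubule depolymerase, has a table start 3852 bp inside the gene, and no library had a peak round it.

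Cenpe, the kinesin that brings chromosomes to the spindle equator, is described here because of its values. Promoter Ser2P covered 866 and 1104 bp in controls and 267 and 282 bp in KD, so the groups were far apart (limma difference -35.5 points ± 5.70 SE, adjusted p = 0.231; exact permutation p = 0.333). Ser5P at the same promoter covered 577 and 714 bp in controls and 1343 and 769 bp in KD, the opposite order. Every library had a peak here, so the difference was in its width. The Ser5P KD peaks, although wide, were weak in rank, and at a −log10 q of at least 5 Cenpe turned to control-only for promoter Ser5P. Nuf2, the partner of Ndc80, had 927 and 548 against 373 and 439 bp of promoter Ser5P and 372 and 401 against 537 and 549 bp of promoter Ser2P.

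**Figure D4:**
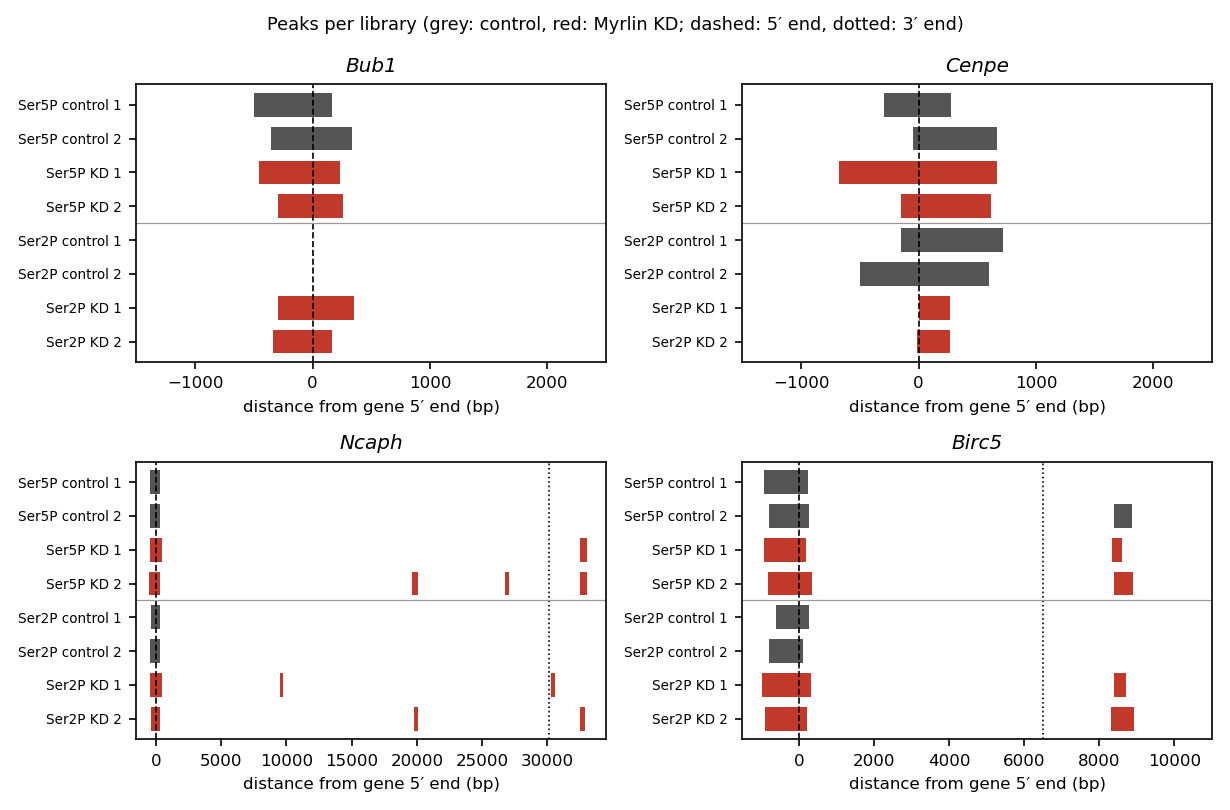
Peaks of the 8 libraries (rows, control grey, KD red) against distance from the 5′ end in bp for Bub1, Cenpe, Ncaph and Birc5, with the 5′ end dashed and the 3′ end dotted. Bub1 lacks Ser2P peaks in both controls, Cenpe has narrow Ser2P peaks in KD, Ncaph has peaks beyond the start only in KD libraries, and the Birc5 site past the 3′ end is in 5 libraries.

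Midzone and cytokinesis genes were marked at all 6 promoters in every library. Kif20a, a midzone kinesin, had the highest mean over 4 libraries for both marks, with 1407 and 1393 bp of promoter Ser5P in controls and 1385 and 1287 bp in KD, and 1279 and 1258 against 1353 and 1326 bp of Ser2P. In single libraries Anln or Ncapd2 covered more, for Ser5P in both KD libraries and for Ser2P in control 1 and KD 2. The Kif20a promoter is shared with Brd8, and the gene had no downstream Ser2P in any library. Kif23, the kinesin of centralspindlin, Prc1, which bundles midzone microtubules, Nusap1, a spindle microtubule-associated protein, and Ect2, which activates RhoA, ranged from 615 to 1088 bp of promoter Ser5P. The Kif23 signal past its 3′ end lies at the start of Rplp1 in all 8 libraries.

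Anln (anillin), which scaffolds the contractile ring, stood out in width in both marks. Its promoter is shared head to head with 9530077C05Rik, so the promoter signal cannot be assigned to Anln alone. Promoter Ser5P covered 1071 and 757 bp in controls and 1472 and 1536 bp in KD, and promoter Ser2P 948 and 367 against 1315 and 1380 bp. Downstream Ser2P at Anln was 690 and 376 bp in controls and 2536 and 3240 bp in KD, the highest mean of any member. None of these groups overlapped, and the limma adjusted p-values were 0.338, 0.285 and 0.242. Downstream Ser5P was 1211 and 1570 against 1184 and 1849 bp and did overlap. Past its 3′ end, 3075 bp on, Anln had a site in all 8 libraries that was not near the start of another gene.

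Chromosome condensation genes had promoter Ser5P in all libraries. It was above both controls in KD at 3 of 5 and below at 1, against 25.6% and 10.8% of genes with a promoter peak. Topoisomerase II alpha (Top2a), which untangles sister DNA, was the member below, with 1169 and 1095 bp in controls and 912 and 846 bp in KD (limma difference -12.6 points ± 3.38 SE, adjusted p = 0.393). The condensin ATPase Smc4 covered 928 and 485 against 1178 and 1167 bp for promoter Ser5P and 730 and 581 against 1192 and 1210 bp for promoter Ser2P. Its limma adjusted p for Ser2P was 0.231, and its promoter is shared with Ift80. The other ATPase, Smc2, had overlapping Ser5P groups of 720 to 1185 bp. Ncapd2, a condensin I subunit, had 967 and 1363 against 1384 and 1455 bp of promoter Ser5P. Its downstream Ser2P was 1517 and 1536 bp in controls and 1664 and 1845 bp in KD, nearly all at 2 sites near the Gapdh start. In KD 2 a further peak of 390 bp lay inside the gene, 17914 bp from its start, and the peaks near Gapdh covered 485 and 970 bp. Those of control 1 covered 523 and 994 bp and those of control 2 467 and 1069 bp, so at these sites KD 2 was not above the controls.

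Ncaph, the kleisin that closes the condensin I ring, was KD-only downstream in both marks. Ser5P covered 0 and 0 bp in controls and 580 and 1285 bp in KD, and Ser2P 0 and 0 bp in controls and 603 and 662 bp in KD (exact permutation p = 0.333 for each). The limma adjusted p-values were 0.519 and 0.252. Both Ser5P KD libraries and Ser2P KD 2 had a peak 2772 bp past the 3′ end, at chr2:127100891-127101470, and a further site 19815 bp from the start was shared by 1 KD library of each antibody. The Ser2P peaks of KD 1 were elsewhere, so the 2 Ser2P libraries shared no site. Both Ncaph calls were lost at a −log10 q of at least 5, the Ser2P call also after thinning and with lists of equal size, and the Ser5P call also without the extension past the 3′ end. Its promoter Ser5P, 736 and 765 against 897 and 862 bp, also did not overlap.

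Merging the peaks of all 8 libraries into sites showed how far constancy depended on place. At promoters there were 40 sites, 38 of them in all 8 libraries. Inside genes there were 72 sites in 28 members, of which 48 were in a single library and 1 in all 8. Past 3′ ends there were 34 sites in 23 members, 6 of them in all 8 libraries, and 5 of those 6 lay within 1000 bp of the start of another gene. Head-to-head promoters, with another gene starting within 1000 bp on the opposite strand, were found at 9 members (22.5%), a share close to the 23.9% of genes with promoter Ser5P in all 4 libraries. Besides those named above they include Hmmr with Nudcd2, Nusap1 with Oip5 and Ncapd2 with Mrpl51. These 9 members had a median of 901 bp of promoter Ser5P against 815 bp in the other 31.

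Other mitotic genes, a list of 104 further genes of the same pathways, were also mostly marked at their promoters. Promoter Ser5P was in all 4 libraries at 97 of 104 and promoter Ser2P at 94. Downstream Ser2P was in all 4 at 35. Control-only calls were downstream Ser5P at Mybl2, Kif20b and Kntc1 (3 of 104, against 1.44% of all genes) and downstream Ser2P at Anapc13 (1 of 104, against 0.548%). KD-only calls were downstream Ser5P at Bora and Pmf1 (2 of 104, against 1.08%) and downstream Ser2P at Plk4, Cep55 and Nsl1 (3 of 104, against 2.25%). These calls were not rechecked gene by gene under the alternative settings. Mybl2 encodes B-Myb, and its downstream Ser5P covered 709 and 527 bp in controls and 0 and 0 bp in KD. Plk4, the kinase of centriole duplication, had 0 and 0 bp of downstream Ser2P in controls and 496 and 332 bp in KD.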

How the data were processed

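Per the labels, CUT&Tag was run on MEL cells with the same cell number for each replicate. Per the submitters' processing notes the authors called peaks with MACS2 2.2.7.1 on GRCm38 (mm10) after cutadapt 2.7 and Bowtie2 2.3.5, and also ran Picard 2.21.4, SAMtools 1.9 and deepTools 3.3.1. Their parameters, and whether any control library was used, are not given in these sources. The deposited peak lists, 1 per library, hold a display score, the fold enrichment as a ratio, and −log10 p and −log10 q per peak. Fold and p served to rank or filter peaks inside a list, to describe them and to solve their whole-number pileup (tolerance 0.001), which gave relative depth and thinning. The lowest −log10 q per list was 1.30 to 1.31. Read totals were not used here.

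Genes came from RefSeq GRCm38.p6: 21536 of 21887 protein-coding genes had a strand, from the promoter table or GENCODE vM1. The supplied genome is another build and was not used. Exon and intron annotation was not used. A window was marked if at least 1 bp lay under a peak. Covered percentages of genes marked in at least 2 of 4 libraries were tested with limma 3.58.1 (R 4.3.3), with Benjamini-Hochberg adjustment over all genes tested. Scripts were tested on simulated data. Values in every library are given for members with KD-only or control-only calls, those lacking promoter Ser5P in a library, the 3 highest and 3 lowest by mean promoter Ser5P and by downstream Ser2P, the first of each role, and some chosen after their values were seen. Where more than 3 members tied at 0 downstream, they are given by name or count. The members, lists and tests were chosen with earlier results of these data known. The alternatives tried were equal peak numbers, a stricter −log10 q of 5, thinning, a 200 bp minimum, other windows, each library left out, a replicate block, no filter and a log2 scale. The requirement that peaks of both libraries share a site was added after seeing the data.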

Additional observations from a re-analysis of the deposited data

Results flagged for a closer look

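Promoter coverage of 3 members went one way for Ser5P in both KD libraries and the other way for Ser2P. At Cenpe the KD minus control difference was 410.5 bp for Ser5P and -710.5 bp for Ser2P, so that Ser2P minus Ser5P was -1121 bp. This depended on weak Ser5P peaks in KD. With only peaks of a −log10 q of at least 5 the Cenpe Ser5P difference was -645.5 bp, lower in KD like Ser2P in the full lists. At Nuf2 the differences were -331.5 and 156.5 bp, which gave 488 bp, and at Kif20a -64 and 71 bp, which gave 135 bp. In limma's interaction of antibody and line over 9814 promoters, with Benjamini-Hochberg adjustment, the adjusted p-values were 0.409, 0.512 and 0.760, and 0 genes were called (875 at an unadjusted p under 0.05). Over all 21536 genes 455 showed opposite directions of this kind. Only genes with promoter peaks of both marks can show it. A promoter Ser5P peak in at least 1 library was found at 9799 genes, and at all 40 members. The Ser5P and Ser2P lists were called apart, and their depths were not matched. For the downstream window 0 members showed it.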

How the results depend on the processing

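Depth limits these lists: a missing peak means that none was called, not that polymerase was absent. The median promoter Ser5P difference over members reversed to -2.25 bp without the first control library. Promoter Ser5P control-only calls went from 0 to 1 (Cenpe) at a −log10 q of at least 5. KD-only downstream Ser2P calls fell from 4 to 2 without the extension past the 3′ end (Tpx2 and Ncaph) and to 1 (Birc5) when both peaks had to share a site, a choice made after seeing the data. At a −log10 q of at least 5 there were again 4 such calls, but only Birc5 was in both sets of 4. With each library left out in turn the KD-only downstream Ser2P count ran from 5 to 10, the highest without control 1 and 7 without KD 2, and the control-only count from 0 to 1. The KD-only share of all genes moved likewise, from 2.25% to 8.18% with control 1 left out and 3.04% with control 2 left out. Dropping KD 1 gave 4.39%, and dropping KD 2 gave 5.08%. Downstream Ser5P counts with a library left out ran from 2 to 6 for KD-only and from 1 to 2 for control-only (main counts 2 and 0).

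The limma counts of 0 called genes became 20 (promoter Ser5P), 21 (promoter Ser2P), 67 (downstream Ser5P) and 60 (downstream Ser2P) with no filter, 97 and 119 for the promoters on the log2 scale with 100 bp added, and 6 for downstream Ser5P at a −log10 q of at least 5. Members among them were Bub1 (promoter Ser2P, log2 scale, adjusted p = 0.0417) and Tpx2 (downstream Ser2P, no filter, adjusted p = 0.00951). The causes of these counts were not tested. The Tpx2 difference of 0.527 points had an SE of 0.00377 points without the filter and 0.319 points in the main fit. In the main limma fit its adjusted p was 0.603, and its KD peaks lay at different places. With the replicate number as a block 0 genes were called in all 4 comparisons. Same-numbered libraries deviated with correlations of 0.0430, 0.0137, 0.0164 and 0.107. The labels do not say whether numbers mark a shared batch, and with 2 libraries per group these correlations cannot settle it.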
